A study of Mus musculus with 12 samples.

Results

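The genes described here are 34 mouse genes of the unfolded protein response and the integrated stress response, chosen by name from what their products are known to do and kept where they had enough counts. They are 34 of the 39086 genes in the count table, and all 34 were among the 17087 genes tested. For the account below they form 2 branches. The ATF6/XBP1 branch holds 26 genes, with 3 sensors and 1 transcription factor, 11 chaperones and co-chaperones, 4 protein disulfide isomerases and 7 genes of ER-associated degradation (ERAD). The ATF4 branch holds 8 genes, the sensor kinase gene Eif2ak3, the factors Atf4 and Ddit3, and 5 targets of ATF4.

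RNA came from the jejunal villi of 12-week-old male C57BL/6N mice of the genotype Neurog3eYFP/+, in which 1 Neurog3 allele carries a yellow fluorescent reporter. The controls carry this reporter allele too. Neurog3 is the factor that commits gut cells to the endocrine fate, and cells sorted as eYFP plus are called EEC (enteroendocrine cells, which make the gut's hormones), while eYFP minus cells are called non-EEC. The mice ate a normal diet (ND, Safe D04) or a high fat diet (HFD, D12492) that was begun at 8 weeks of age and lasted 4 weeks. Each of the 4 groups (ND EEC, ND non-EEC, HFD EEC and HFD non-EEC) held 3 libraries, 12 in all. Per the labels 3 mice were used for each diet, and which libraries share a mouse is not said; the p-values therefore rest on differences among libraries, which may be partly technical.

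Libraries held 9543183 to 29054281 counts. Summed CPM (counts scaled to the library's total after its TMM correction for composition) of 6 EEC markers was 11660 to 38510 in ND EEC and 24880 to 67580 in HFD EEC, against 75.2 to 2416 and 255 to 601 in the non-EEC, so every EEC library was above every non-EEC library. Non-EEC are a mixture of cell types by design. Summed T cell markers (10 genes) were 3922 to 9637 CPM in ND non-EEC and 48.7 to 364 in HFD non-EEC, and all 10 were called lower under HFD. Here and below, a gene is called where edgeR's quasi-likelihood test on the 12 libraries passes its threshold, unless another tool or setting is named. Summed enterocyte markers (10 genes) went the other way, 3376 to 20220 against 37050 to 82310 CPM, and 6 of 10 were called higher. Summed Paneth cell markers (5 genes) were 127 to 1154 against 1186 to 5466 CPM in the same groups, with 0 of 5 called. Of 8 goblet markers 0 were called, while 1 of 5 tuft and 2 of 10 tested B and plasma cell markers were called lower. T cell markers were 189 to 1365 CPM in ND EEC and 15.97 to 72.6 in HFD EEC, with 0 of 10 called and all 10 lower at an unadjusted p below 0.05. In bulk libraries such as these, fewer cells of a type and less RNA per cell cannot be told apart.

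The endoplasmic reticulum (ER) folds proteins bound for secretion, and its load is read by the membrane sensors ATF6, IRE1 (genes Ern1 and Ern2, the latter known from mucus-secreting epithelium) and PERK (gene Eif2ak3). Active ATF6 and the spliced form of XBP1 made by IRE1 switch on chaperones, disulfide isomerases and ERAD. PERK, like other kinases that read amino acid shortage, haem and viral RNA, phosphorylates the translation factor eIF2, which lowers protein synthesis in general and raises translation of ATF4. ATF4 then switches on genes of amino acid supply, the factor CHOP (gene Ddit3) and the phosphatase subunit that ends the response (gene Ppp1r15a). Splicing of Xbp1, cleavage of ATF6 and phosphorylation were not measured, so the values below are levels of messenger RNA only.

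Promoter windows were searched for the letters that textbooks name as the sites of the 2 branches, and a few matches are printed here because the branches are named for the factors known to use these sites. Windows of 300 bases (250 before and 50 after each start) came from RefSeq on GRCm38.p6 and were found for 29 of 34 genes; Atf6, Ern2, Hyou1, Manf and Derl1 were not matched. Both strands were searched for the ER stress element ERSE (CCAAT, 9 bases, CCACG), ERSE-II (ATTGG, 1 base, CCACG), the core of the UPRE (TGACGTGG) and the ATF4 composite element CARE (TGATG, any base, AA, any base). ERSE was in the windows of 9 of 21 matched genes of the ATF6/XBP1 branch (Calr, Canx, Creld2, Derl3, Dnajc3, Hsp90b1, Hspa5, Pdia6 and Syvn1) and of 0 of 8 of the ATF4 branch, against 0.119% of all 32851 windows. ERSE-II was in those of Dnajb11 and Herpud1, against 0.0365% of all windows. CARE was in those of Asns, Chac1 and Trib3, 3 of 8 in the ATF4 branch, and of Herpud1, 1 of 21 in the other branch, against 3.95% of all windows. The UPRE core was in none of the 29 genes' windows and in 0.676% of all windows. A match describes letters, not binding, and no match says nothing of the factor. Capitals mark the match, positions count from the RefSeq start (the base before it is -1), and each line reads 5′ to 3′ on the gene's strand; a match on the other strand shows as its reverse complement.
Hspa5, chr2:34772020-34772048, plus strand, ERSE at -65 to -47: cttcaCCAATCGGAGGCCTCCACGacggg
Hsp90b1, chr10:86705513-86705571, minus strand, ERSE at -107 to -89: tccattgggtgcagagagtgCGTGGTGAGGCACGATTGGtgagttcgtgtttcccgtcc
Canx, chr11:50325780-50325838, minus strand, ERSE at -145 to -127: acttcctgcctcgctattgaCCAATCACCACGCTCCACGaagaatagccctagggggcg
Pdia6, chr12:17266471-17266529, plus strand, ERSE at -98 to -80: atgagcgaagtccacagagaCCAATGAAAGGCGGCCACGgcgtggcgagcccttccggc
Dnajc3, chr14:118937807-118937865, plus strand, ERSE at -105 to -87: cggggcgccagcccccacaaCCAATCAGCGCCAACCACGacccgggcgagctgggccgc
Syvn1, chr19:6046512-6046570, plus strand, ERSE at -44 to -26: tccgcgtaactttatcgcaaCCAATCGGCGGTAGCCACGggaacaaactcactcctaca
Herpud1, chr8:94386357-94386407, plus strand, ERSE-II at -52 to -42: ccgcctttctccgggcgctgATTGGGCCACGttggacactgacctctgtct
Herpud1, chr8:94386296-94386344, plus strand, CARE at -113 to -105: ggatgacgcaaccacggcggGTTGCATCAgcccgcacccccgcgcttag
Chac1, chr2:119351028-119351076, plus strand, CARE at -194 to -186: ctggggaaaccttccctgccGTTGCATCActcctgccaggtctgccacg
Asns, chr6:7693219-7693237, minus strand, CARE at -23 to -15: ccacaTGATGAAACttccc
The stretches of Hspa5 and Asns are shorter because an annotated exon lies there. Herpud1, whose product helps to assemble the ERAD complex, was the one gene whose window held an element of each kind.

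Levels can be compared between genes only per length, as RPKM (CPM divided by the length of the gene's exons in kilobases). In ND EEC the highest group means were those of the luminal chaperone gene Hsp90b1 (239.5 RPKM), the disulfide isomerase genes P4hb (201) and Pdia3 (179), Hspa5, which encodes the master chaperone BiP (156), and the lectin chaperone gene Calr (133). The lowest were those of Chac1 (0.241 RPKM), Trib3 (0.898) and Derl3 (0.906). Atf4 itself had 77.1 RPKM and Xbp1 78.99, while the kinase sensors Ern1, Ern2 and Eif2ak3 had 14.2, 6.29 and 3.03. The most abundant transcripts were thus those of folding genes, but other folding genes, such as Creld2 (39.2 RPKM) and Sdf2l1 (19.5), lay below Atf4 and Xbp1. The ATF4 targets Chac1 and Trib3 were near the floor of detection. Chac1 and Derl3 were the 2 genes at 0 counts in at least 1 library.

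**Figure D1:**
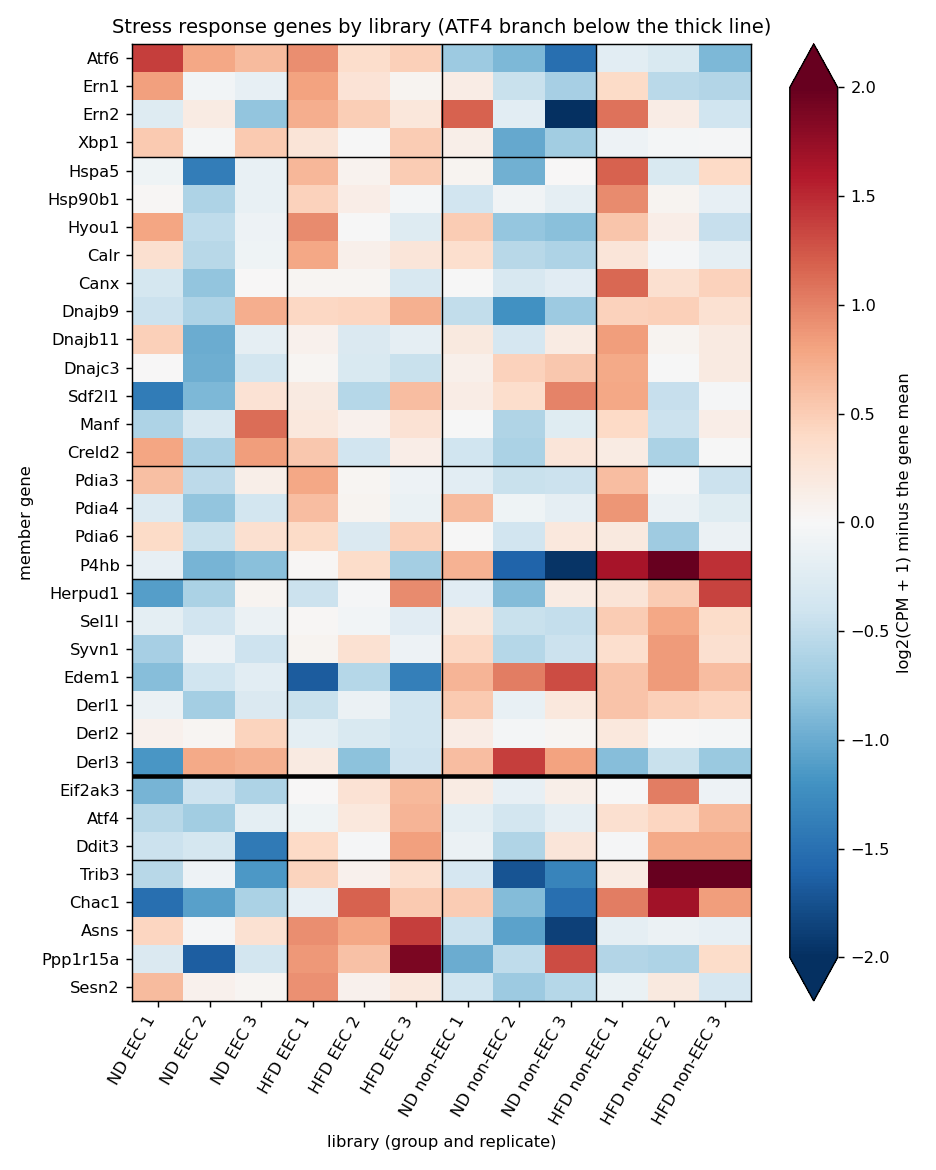
Level of each of the 34 genes in the 12 libraries, as log2(CPM + 1) minus the gene's mean over the libraries, with genes in rows by role and libraries in columns by group. Asns and Atf6 are high in the EEC columns and Edem1 in the non-EEC columns, and the ATF4 rows are higher in the HFD columns than in the ND columns for most libraries.

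Averaged over its 8 genes, the ATF4 branch had a mean log2(CPM + 1) of 4.02 to 4.14 in ND EEC and 4.94 to 5.36 in HFD EEC, and of 3.79 to 4.32 in ND non-EEC and 4.62 to 5.24 in HFD non-EEC. The ATF6/XBP1 branch had 6.61 to 7.12 and 7.02 to 7.30 in the EEC, and 6.70 to 7.22 and 7.13 to 7.58 in the non-EEC. The diets' ranges did not overlap for the ATF4 branch in either population. For the ATF6/XBP1 branch they overlapped. No p is given for these averages, since the genes were chosen with results of these data known.

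**Figure D2:**
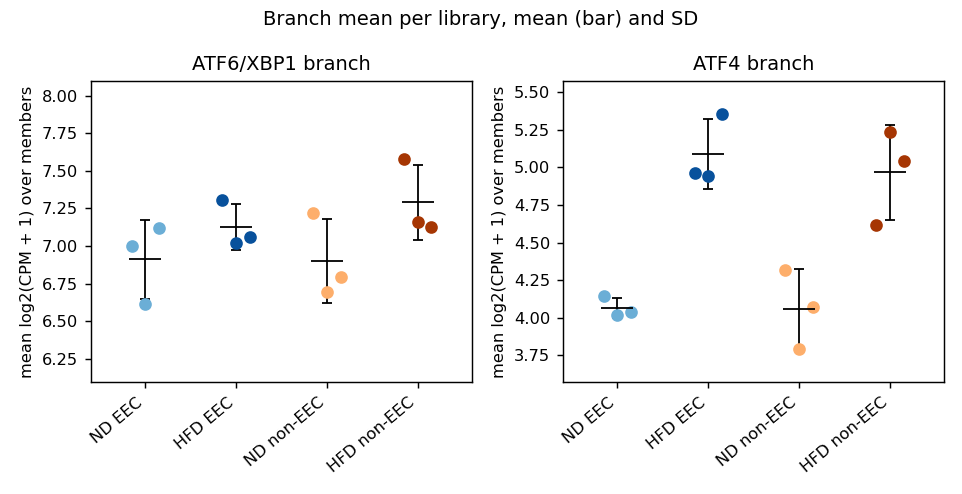
Mean log2(CPM + 1) of the 26 ATF6/XBP1 genes (left) and the 8 ATF4 genes (right) in each library, by group; each point is 1 library, the bar is the group mean, and both panels span the same number of log2 units. The 3 HFD EEC points of the ATF4 branch (4.94 to 5.36) lie above the 3 ND EEC points (4.02 to 4.14).

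The first comparison asked what the diet did in EEC. With 3 libraries against 3, edgeR's quasi-likelihood test called 0 of the 34 genes at an adjusted p below 0.05, as it called 0% of all genes higher and 0% lower. DESeq2 called 154 genes of all those tested higher and 327 lower and limma-voom 7 and 1, and each also called 0 of the 34. At an unadjusted p below 0.05, 6 of the 34 were higher under HFD and 0 lower, where 4.2% of all genes were higher and 5.24% lower. All 6 belong to the ATF4 branch: Eif2ak3, Atf4, Ddit3, Chac1, Asns and Ppp1r15a. The branch had 8 of 8 positive log2 fold changes with a median of 1.08, beside a median of 0.00 over all genes. In the ATF6/XBP1 branch 18 of 26 were positive, the median was 0.16, and 0 passed an unadjusted p of 0.05.

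The sensor and factors of the ATF4 branch had higher values in every HFD EEC library than in any ND EEC library, though edgeR called none. Atf4 had 171, 155 and 219.7 CPM in the 3 ND EEC libraries and 238, 291 and 406 in the 3 HFD EEC libraries. Its log2 fold change, given here and below with the standard error, was 0.78 ± 0.30 (adjusted p = 0.404 by edgeR's quasi-likelihood test). The gene lies on chromosome 15, 80255184 to 80257541 (mm10, as all gene positions here). Ddit3 (chromosome 10, 127290774 to 127296288) had 29.03, 30.8 and 14.3 CPM under ND and 52.8, 38.99 and 70.8 under HFD (1.14 ± 0.39; adjusted p = 0.340 by edgeR). Eif2ak3, the kinase at the head of the branch, had 14.8, 21.5 and 18.6 CPM against 29.2, 35.8 and 45.98 (1.02 ± 0.36; adjusted p = 0.363 by edgeR). For all 3 genes the diets did not overlap. Exons of Ddit3 overlap those of Mars and Gm4189 on the opposite strand by 81 bases, and whether counting used strand is not given, so part of its counts may belong to them.

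Among the ATF4 targets, 5 of 5 had positive log2 fold changes and 4 had all HFD EEC libraries above all ND EEC libraries. Ppp1r15a (chromosome 7, 45522916 to 45526268), whose product brings the phosphatase to eIF2, had 34.2, 12.7 and 32.5 CPM under ND and 77.5, 63.3 and 157 under HFD (1.91 ± 0.62; adjusted p = 0.304 by edgeR). Asns (chromosome 6, 7675169 to 7693254), which encodes asparagine synthetase, had 54.2, 39.2 and 49.5 against 76.9, 68.4 and 106 CPM (0.81 ± 0.36; adjusted p = 0.507 by edgeR). Both genes were separate between diets, with HFD EEC replicate 3 the highest library of each. Trib3 (chromosome 2, 152337422 to 152344032), a pseudokinase that feeds back on ATF4, was low throughout at 1.88, 2.94 and 0.902 CPM under ND and 4.75, 3.50 and 4.36 under HFD (1.15 ± 0.78; adjusted p = 0.734 by edgeR). Chac1, which encodes a glutathione-degrading enzyme, was lower still, with 0, 0.346 and 0.840 CPM against 1.54, 5.47 and 3.08 (2.94; adjusted p = 0.498 by edgeR), a size that depends on the prior count because a library is at 0. Sesn2, a sestrin induced under stress, had the smallest log2 fold change of the branch, 0.19 ± 0.38, and its groups overlapped. In all, 7 of the 8 ATF4 genes were separate between diets, where 8.37% of all genes had every HFD EEC library higher and 6.59% every one lower.

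**Figure D3:**
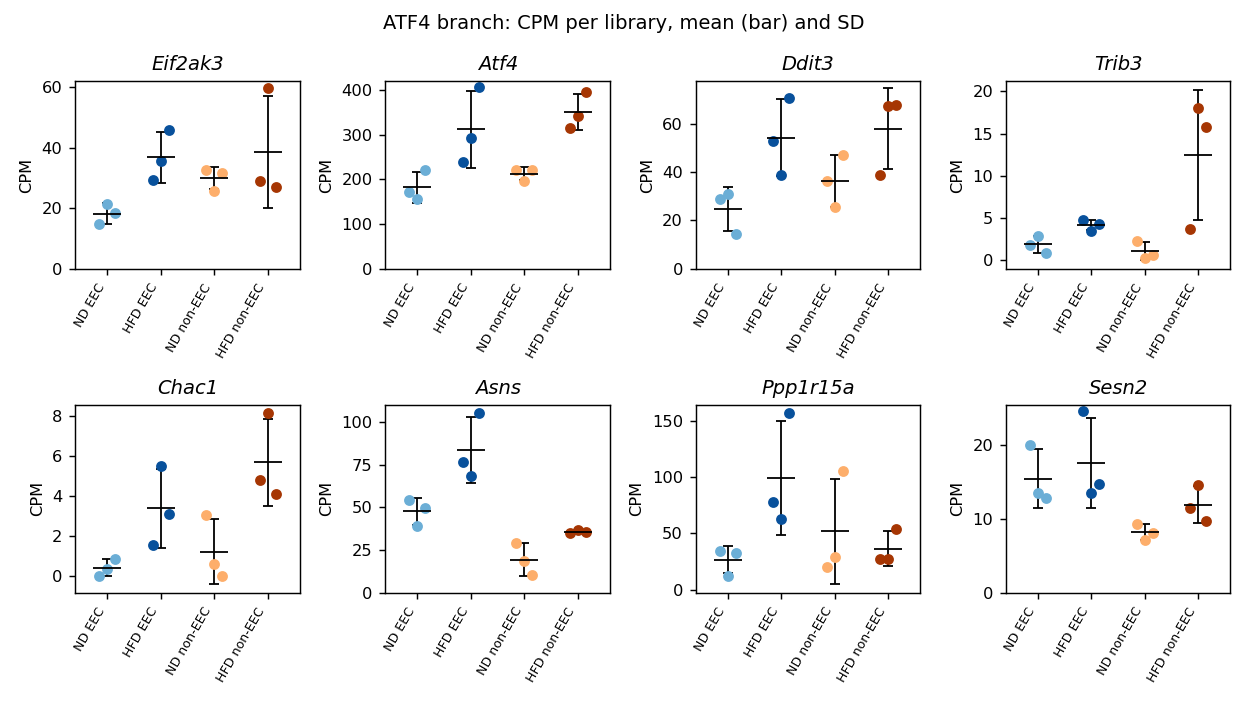
CPM of the 8 genes of the ATF4 branch in each library, 1 panel per gene, with 1 point per library, a bar at the group mean and whiskers for the SD. In EEC all 3 HFD points lie above all 3 ND points for every gene but Sesn2.

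The size of this pattern rested in part on single libraries. Without HFD EEC replicate 3, 0 of the 8 ATF4 genes stayed below an unadjusted p of 0.05, without ND EEC replicate 1 it was 2, and without ND EEC replicate 2 it was 3. The branch median lay between 0.82 and 1.21 over all alternatives. T cell markers, summed at 1365, 1227 and 189 CPM in ND EEC replicates 1, 2 and 3 and 15.97, 38.2 and 72.6 in HFD EEC, moved with diet in the opposite direction, and their part in the result was not tested.

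The ATF6/XBP1 branch in EEC held no such order in edgeR's fit of all libraries, but its values depended on the setting. Over all alternatives its median ran from -0.056 to 0.403, with 12 to 22 genes positive. limma-voom gave 22 of 26 positive, and 3 higher and 1 lower at an unadjusted p below 0.05. Without ND EEC replicate 2, 12 of 26 were positive. Atf6 had 545, 356 and 322 CPM under ND and 398, 265 and 289.8 under HFD (-0.36 ± 0.34; adjusted p = 0.842 by edgeR), and Xbp1 had 287, 195 and 288 against 239, 198 and 284 (-0.09 ± 0.33). Ern1 had 171, 92.2 and 85.9 CPM against 168, 117 and 100.4 (0.14 ± 0.39). These 3 genes overlapped between diets. Ern2 had 18.4, 25.1 and 12.4 CPM under ND and 37.5, 31.8 and 26.2 under HFD (0.78 ± 0.69, adjusted p = 0.828 by edgeR). Its groups did not overlap, but its standard error was large beside those of Atf6, Xbp1 and Ern1.

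Of the 11 chaperone genes 8 had positive log2 fold changes, from -0.33 (Creld2) to 0.87 (Hspa5). Hspa5 had 834, 341 and 798 CPM under ND and 1411, 929.5 and 1264 under HFD (0.87 ± 0.48; adjusted p = 0.630 by edgeR). Every HFD EEC library was above every ND EEC library, with ND EEC replicate 2 far below its fellows. Dnajb9 (chromosome 12, 44205559 to 44210326), a BiP co-chaperone that restrains IRE1, had 45.3, 39.6 and 102 CPM against 81.6, 82.5 and 101 (0.50 ± 0.36; adjusted p = 0.762 by edgeR). Dnajc3, another BiP co-chaperone, had 217, 109 and 166 against 221, 173 and 158 (0.17 ± 0.34). Both genes overlapped between diets.

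The disulfide isomerase gene Pdia4 had 89.6, 62.5 and 83.3 CPM under ND and 167, 113 and 98.2 under HFD (0.68 ± 0.37; adjusted p = 0.629 by edgeR), with all HFD libraries higher. P4hb had 777, 458 and 492 CPM against 886, 1123 and 543 (0.56 ± 0.61; adjusted p = 0.868 by edgeR), and its groups overlapped. Among ERAD genes Derl2, part of the channel that returns misfolded proteins to the cytosol, was the only one of the 34 with every HFD EEC library lower, at 80.7, 77.8 and 104 CPM under ND and 66.1, 60.7 and 57.1 under HFD (-0.51 ± 0.25; adjusted p = 0.567 by edgeR). Exons of Derl2 overlap the opposite-strand gene Mis12 by 231 bases. Edem1 (chromosome 6, 108828641 to 108859356), a lectin that picks misfolded glycoproteins for destruction, had 77.8, 106 and 122 CPM against 43.8, 95.1 and 54.2 (-0.67 ± 0.34; adjusted p = 0.586 by edgeR). Derl1 (chromosome 15, 57869502 to 57892448), of the same channel, had 70.1, 47.4 and 62.3 against 55.8, 70.7 and 57.6 (0.04 ± 0.28). Edem1 and Derl1 overlapped between diets. The 4 disulfide isomerase genes lay between 0.09 (Pdia6) and 0.68 (Pdia4), and the 7 ERAD genes between -1.11 (Derl3) and 0.78 (Herpud1), with 4 of 7 positive.

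Of 89 other genes of these pathways in 7 lists, 0 were called in EEC, 57 had positive log2 fold changes, and 5 were higher and 1 lower at an unadjusted p below 0.05.

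In non-EEC the test called 3 of the 34 genes higher under HFD and 0 lower, while it called 5.76% of all genes higher and 9.15% lower. The 3 were Dnajb9, P4hb and Trib3, so 2 of 26 genes in the ATF6/XBP1 branch and 1 of 8 in the ATF4 branch. Positive log2 fold changes numbered 28 of 34 with a median of 0.39 (0.36 in the ATF6/XBP1 branch and 0.70 in the ATF4 branch), where the median over all genes was -0.10. All HFD libraries were higher for 10 of the 34 and all lower for 1, Derl3, where 15.1% and 20.2% of all genes were so.

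P4hb (chromosome 11, 120560298 to 120573253) encodes a disulfide isomerase that is also a subunit of the microsomal triglyceride transfer protein of enterocytes. It had 1421, 287 and 224 CPM in the ND non-EEC libraries and 2741, 3512 and 2404 in the HFD non-EEC libraries, a log2 fold change of 2.16 ± 0.63 (adjusted p = 0.0376 by edgeR). Among ND libraries replicate 1 was the high one, and all HFD libraries were above it. Summed enterocyte markers were also higher in each HFD library than in each ND library, 20220, 3376 and 3927 CPM under ND and 37050, 82310 and 74480 under HFD, and their part in the result was not tested. Without ND non-EEC replicate 1 the log2 fold change of P4hb was 3.41 (adjusted p = 7.75e-04 by edgeR).

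Trib3 had 2.33, 0.283 and 0.687 CPM under ND and 3.74, 18.01 and 15.8 under HFD (3.50 ± 0.84; adjusted p = 0.0167 by edgeR). HFD replicate 1 was near the highest ND library and the other two were several times higher. Dnajb9 had 43.1, 25.8 and 36.4 CPM against 84.6, 85.4 and 75.6 (1.22 ± 0.37; adjusted p = 0.0405 by edgeR), with narrow spreads and no overlap. These calls were not stable to the loss of 1 library. Of 12 such runs, Dnajb9 lost its call in 8 (adjusted p 0.0555 to 0.156 by edgeR), holding only without ND EEC replicate 1, 2 or 3 or ND non-EEC replicate 1, and it also lost it with no filter on low counts. P4hb lost its call in 6 (adjusted p 0.0517 to 0.125 by edgeR), those without ND non-EEC replicate 2 or 3, HFD EEC replicate 1, or HFD non-EEC replicate 1, 2 or 3, and also when only the libraries compared were fitted. Trib3 lost its call in 4 (adjusted p 0.0546 to 0.0687 by edgeR), those without ND non-EEC replicate 2 or 3 or HFD non-EEC replicate 2 or 3. Over all alternatives the adjusted p ran over 0.000476 to 0.156 for Dnajb9, 2.42e-05 to 0.125 for P4hb and 8.28e-05 to 0.0687 for Trib3. Without ND non-EEC replicate 1, the test called 6 of the 34 genes higher, adding Sel1l, Syvn1 and Asns. DESeq2 called 6 higher, adding Canx, Sel1l and Atf4, and limma-voom 14 higher, adding Xbp1, Hspa5, Canx, Herpud1, Sel1l, Syvn1, Derl1, Atf4, Ddit3, Chac1 and Asns. Both called 1 lower, Derl3. The share of all genes that these runs and tools called in non-EEC is not given here, so their counts say nothing particular of the 34 genes.

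The other ATF4 genes in non-EEC were not called by edgeR. Atf4 had 220.2, 196 and 222 CPM under ND and 314, 342 and 395 under HFD (0.72 ± 0.30; adjusted p = 0.118 by edgeR), and Asns had 29.3, 18.4 and 10.2 against 35.01, 36.7 and 35.5 (0.89 ± 0.36; adjusted p = 0.116 by edgeR). Both were separate between diets. Ddit3 had 36.4, 25.6 and 46.9 CPM against 38.8, 67.5 and 67.7 (0.68 ± 0.39), and Eif2ak3 32.7, 25.8 and 31.6 against 29.04, 59.9 and 27.1 (0.36 ± 0.36). Ppp1r15a was the 1 gene of the branch with a negative value, at 20.6, 29.3 and 106 CPM under ND and 27.7, 27.1 and 54.2 under HFD (-0.51 ± 0.60; adjusted p = 0.614 by edgeR). Its ND replicate 3 was far above the rest, and these 3 genes overlapped between diets. Chac1 had 3.04, 0.566 and 0 CPM against 4.76, 8.12 and 4.10, and Sesn2 had a log2 fold change of 0.54 ± 0.39. Neither of them was called by edgeR, while limma-voom called Chac1.

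Sensors and chaperones in non-EEC mostly overlapped between diets. Atf6 had 125, 111 and 72.8 CPM under ND and 179, 168 and 111 under HFD (0.57 ± 0.34), and Xbp1 217, 97.8 and 123 against 185, 194 and 196 (0.39 ± 0.34). Hspa5 had 927, 458 and 896 against 2009, 715 and 1170 CPM (0.77 ± 0.48; adjusted p = 0.303 by edgeR). HFD replicate 1 was the highest of these libraries, and HFD replicate 2 was below ND replicates 1 and 3. Ern1 had 106, 70.1 and 60.1 CPM against 126, 65.8 and 63.5 (0.11 ± 0.39), and Ern2 51.4, 19.1 and 3.49 against 48.1, 24.6 and 16.6 (0.28 ± 0.69). Dnajc3 had 229.9, 298 and 314 against 365, 215 and 243 (-0.03 ± 0.33), and Pdia4 168, 102 and 95.7 against 200.5, 99.8 and 91.5 (0.10 ± 0.37). None of these was called by edgeR, while limma-voom called Xbp1 and Hspa5. Of the 11 chaperone genes 9 had positive log2 fold changes, from -0.36 (Sdf2l1) to that of Dnajb9, and Canx, the membrane-bound lectin chaperone, had 0.87 ± 0.35 (adjusted p = 0.107 by edgeR).

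Derl3, a derlin known from plasma cells, was at 2.41, 4.81 and 2.92 CPM under ND and 0.241, 0.634 and 0.342 under HFD (-3.07 ± 1.19; adjusted p = 0.0985 by edgeR). Summed B and plasma cell markers were 1706, 2471 and 1662 against 279.8, 18.1 and 237 CPM in the same libraries, and their part in the Derl3 values was not tested. Among ERAD genes Derl1 had 111, 68.6 and 89.01 CPM against 114, 106 and 103 (0.27 ± 0.28), Derl2 83.9, 73.5 and 77.5 against 88.03, 75.2 and 73.5 (0.01 ± 0.25), and Edem1 228, 288 and 349 against 210.4, 256 and 218 (-0.34 ± 0.34; adjusted p = 0.544 by edgeR). These 3 were not called by edgeR, while limma-voom called Derl1. Herpud1 had 1.04 ± 0.46 (adjusted p = 0.138 by edgeR), Sel1l, the scaffold of the ERAD ligase, 0.76 ± 0.29 (adjusted p = 0.0916 by edgeR), and Syvn1, the ligase itself, 0.66 ± 0.33 (adjusted p = 0.191 by edgeR).

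Of the 89 other pathway genes, 7 were called higher and 2 lower in non-EEC. In the list of regulators of the integrated stress response 2 of 10 rose, the factor genes Atf3 (3.09 ± 0.66; adjusted p = 0.00981 by edgeR) and Cebpg (0.90), and 0 fell. In the list of ATF4-linked genes, most of them for amino acid supply, 1 of 18 rose, Cth (1.71), the last enzyme of transsulfuration, and 2 fell, the serine synthesis genes Psph (-2.33 ± 0.53; adjusted p = 0.0124 by edgeR) and Psat1 (-1.97). Of 16 other ER folding genes 1 rose, the oxidase gene Ero1l (1.02), and of 10 other ERAD-list genes 1 rose, the COPII coat gene Sec24d (2.01). Of 7 ER proteases and bZIP factors 2 rose, Creb3l2 (2.17) and Creb3l3 (3.42), the latter a membrane-bound factor known from liver and gut lipid metabolism. Of 12 cytosolic tRNA synthetase genes and 16 genes of translocation and signal peptidase, 0 were called. The changes in cell type markers given above moved with all of these.

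**Figure D4:**
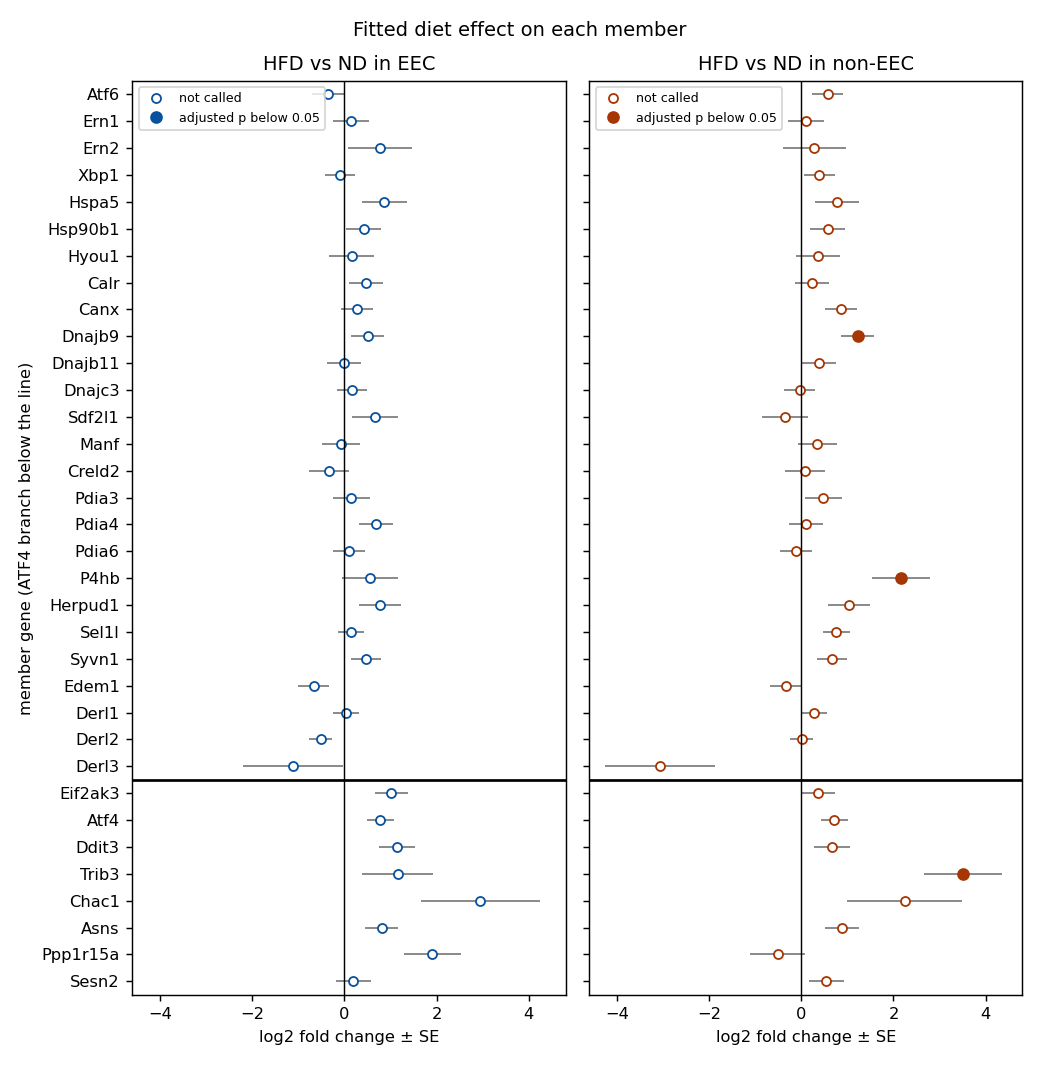
Log2 fold change of HFD against ND with its standard error (horizontal) for each of the 34 genes in rows, in EEC (left panel) and in non-EEC (right panel). Filled points are genes called by edgeR. In EEC all 8 ATF4 points lie right of 0, and in non-EEC Trib3 and P4hb are the called genes farthest right.

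Whether the diet's effect differed between the populations was tested as the difference of the 2 effects, EEC minus non-EEC, which uses the same libraries as both. Of the 34 genes 0 were called, where 0.451% of all genes had a called positive and 0.0468% a called negative difference. At an unadjusted p below 0.05, 1 was positive and 0 negative, beside 9.08% and 7.4% of all genes. That gene was Ppp1r15a, with a difference of 2.42 ± 0.86 (adjusted p = 0.191 by edgeR). The most negative differences were those of Trib3 (-2.35 ± 1.11; adjusted p = 0.311 by edgeR) and P4hb (-1.60 ± 0.86; adjusted p = 0.378 by edgeR), both of which limma-voom called. The branch medians were 0.26 for ATF4 and -0.25 for ATF6/XBP1, beside 0.11 over all genes. P4hb was called without ND non-EEC replicate 1 (-2.89, adjusted p = 0.0136 by edgeR). Of the 89 other pathway genes 0 were called. An ATF4 response to diet particular to EEC was therefore not shown.

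Between EEC and non-EEC over both diets, the test called 2 of the 34 genes higher and 2 lower in EEC, where it called 13.8% of all genes higher and 7.8% lower. The median over the 34 was -0.16, and -0.05 over all genes. Atf6 and Asns were higher in EEC, and the ERAD genes Edem1 and Derl1 lower.

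Atf6 (chromosome 1, 170704674 to 170867771) had means of 408 ± 120.3 CPM (SD, n = 3) under ND and 318 ± 70.8 under HFD in EEC. The non-EEC means were 103 ± 26.9 and 152 ± 36.6. The lowest of the 6 EEC libraries was above the highest of the 6 non-EEC libraries. Its log2 fold change was 1.52 ± 0.25 over both diets (adjusted p = 0.000674 by edgeR) and 1.99 ± 0.35 under ND (adjusted p = 0.00424 by edgeR), and both calls held in every alternative run. Under HFD it was 1.06 ± 0.34 (adjusted p = 0.0572 by edgeR). With same-numbered libraries of a diet as a block it was 1.07 ± 0.25 (adjusted p = 0.0240 by edgeR). The other sensors were not called by edgeR, with Ern1 at 0.58 ± 0.28, Eif2ak3 at -0.39 ± 0.25 and Ern2 at -0.15 ± 0.48. Xbp1 had 0.57 ± 0.24 over both diets (adjusted p = 0.107 by edgeR). limma-voom called both Ern1 and Xbp1 higher in EEC. Without ND non-EEC replicate 1, edgeR also called Xbp1 higher over both diets (adjusted p = 0.0200) and under ND (adjusted p = 0.0229).

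Asns was higher in each EEC library than in each non-EEC library. Its EEC means were 47.6 ± 7.66 CPM (SD, n = 3) under ND and 83.6 ± 19.5 under HFD, and its non-EEC means 19.3 ± 9.61 and 35.7 ± 0.844. The log2 fold change of 1.27 ± 0.26 (adjusted p = 0.00357 by edgeR) was called in every alternative. Under ND it was 1.30 ± 0.37 (adjusted p = 0.0340 by edgeR) and under HFD 1.23 ± 0.37 (adjusted p = 0.0399 by edgeR). Within a diet the call was fragile. Under ND it was lost without ND EEC replicate 1 or 3, ND non-EEC replicate 2 or 3, HFD EEC replicate 1 or HFD non-EEC replicate 3 (adjusted p 0.0506 to 0.106 by edgeR), and with only the libraries compared. Under HFD it was lost without ND EEC replicate 2, ND non-EEC replicate 2, HFD EEC replicate 1 or 3, or any HFD non-EEC replicate (adjusted p 0.0521 to 0.159 by edgeR). Over all alternatives the adjusted p by edgeR and the other tools ran over 0.00381 to 0.107 under ND and 0.00470 to 0.159 under HFD. Atf4, the gene of the factor upstream of Asns, had a negative value and was not called (-0.20 ± 0.21, adjusted p = 0.550 by edgeR). The same held for Ddit3, at -0.33 ± 0.28.

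Edem1 was lower in EEC, where its means were 102 ± 22.6 CPM (SD, n = 3) under ND and 64.4 ± 27.1 under HFD. Its non-EEC means were 288 ± 60.7 and 228 ± 24.5. No EEC library reached the lowest non-EEC library. The log2 fold change was -1.66 ± 0.24 over both diets (adjusted p = 0.00035 by edgeR), -1.49 ± 0.34 under ND (adjusted p = 0.0147 by edgeR) and -1.82 ± 0.35 under HFD (adjusted p = 0.00388 by edgeR). Only the ND call was lost in a run, without ND non-EEC replicate 3 (adjusted p = 0.0573 by edgeR). Derl1 had -0.70 ± 0.20 (adjusted p = 0.0228 by edgeR), a call lost without ND EEC replicate 2, HFD EEC replicate 1 or HFD EEC replicate 3 (adjusted p 0.0534 to 0.0638 by edgeR), and with no filter on low counts. Under HFD it had -0.81 ± 0.28 (adjusted p = 0.0701 by edgeR), and -0.82 ± 0.22, adjusted p = 0.0407 with the block. Of the other 5 ERAD genes 0 were called.

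Within diets, the test called 2 of the 34 higher and 1 lower under ND, beside 7.91% and 4.9% of all genes. Under HFD it called 1 higher and 1 lower, beside 10.2% and 3.77%. With the replicate block the HFD counts were 2 and 3, adding Atf6, Derl1 and P4hb. P4hb had -1.76 ± 0.63 without the block (adjusted p = 0.0794 by edgeR) and -1.81 ± 0.40, adjusted p = 0.0199 with it. Enterocyte markers in the same HFD libraries were 9670 to 21530 CPM in EEC and 37050 to 82310 in non-EEC, and their part was not tested. With all libraries and its default filter, edgeR called no chaperone in an EEC against non-EEC comparison. Dnajc3 was called lower over both diets by DESeq2, by limma-voom and by edgeR with the filter of 5 CPM in 3 libraries. edgeR also called it lower without ND EEC replicate 1 (adjusted p = 0.0292) or ND non-EEC replicate 1 (adjusted p = 0.0365). Under ND limma-voom called Dnajc3 lower and Dnajb9 higher. Over both diets the chaperones lay between -0.68 (Dnajc3, adjusted p = 0.0585 by edgeR) and 0.48 (Creld2), with Hspa5 at -0.16 ± 0.34 and Dnajb9 at 0.47 ± 0.26. Among the remaining members, Trib3 had -0.39 ± 0.55, Ppp1r15a 0.24 ± 0.42, Pdia4 -0.34 ± 0.26, P4hb -0.96 ± 0.43 and Derl2 -0.10 ± 0.18, none of them called by edgeR.

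**Figure D5:**
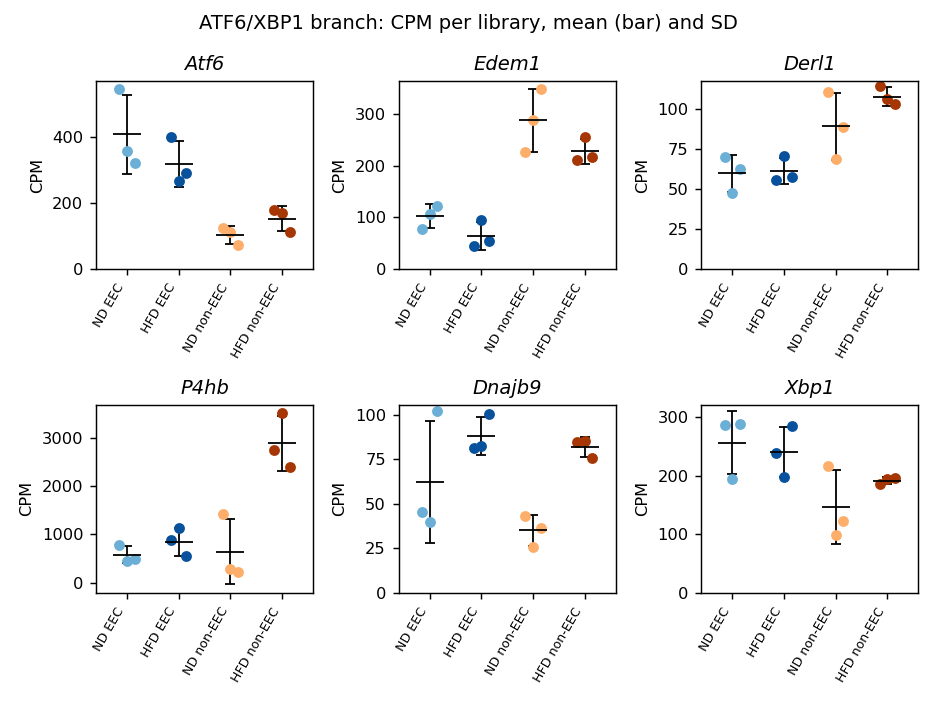
CPM of the genes of the ATF6/XBP1 branch called in any comparison, with Xbp1, in each library. Each point is 1 library, the bar is the group mean and the whiskers are the SD. Atf6 separates the 6 EEC libraries from the 6 non-EEC libraries upward and Edem1 downward, and the 3 HFD non-EEC points of P4hb (2404 to 3512 CPM) are the highest.

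Of the 89 other pathway genes, 9 were called higher and 6 lower in EEC over both diets. A list of genes linked to ATF4, most of them for amino acid supply, had 6 of 18 higher and 2 lower. Vldlr, a lipoprotein receptor gene that is in the list as a known ATF4 target and has no part in amino acid supply, was higher (3.19 ± 0.54; adjusted p = 0.00099 by edgeR), with the serine synthesis gene Psat1 (1.92) and the amino acid transporter gene Slc7a5 (1.69) also higher. Slc3a2, the partner chain of that transporter, was lower (-1.17 ± 0.26; adjusted p = 0.00598 by edgeR). Of 12 tRNA synthetase genes 1 was higher, Gars (1.21 ± 0.21; adjusted p = 0.00101 by edgeR), and 0 were lower. Of the 10 regulators of the integrated stress response 3 were lower and 0 higher, namely Ppp1r15b, the constitutive partner of the eIF2 phosphatase (-0.87 ± 0.21; adjusted p = 0.00917 by edgeR), the haem-sensing kinase gene Eif2ak1 (-0.81) and Cebpb (-1.77). The disulfide reductase gene Dnajc10 (1.16) and the factor gene Creb3l1 (1.22) were higher, and the ERAD gene Selenos (-0.89) was lower. Of 16 genes of translocation and signal peptidase 0 were called. Under ND 2 of the 89 were higher and 1 lower, and under HFD 6 and 4. T cell markers, 9 of 10 called lower in EEC over both diets, moved with these differences. So did goblet (4 of 8 called lower), B and plasma cell (3 of 10 tested) and tuft markers (1 of 5). Of the enterocyte and Paneth cell markers 0 were called over both diets, but their direction differed by diet. All 10 enterocyte markers were positive under ND with 0 called, and all 10 were negative under HFD with 2 called lower. Of 5 Paneth cell markers 4 were positive under ND and all 5 negative under HFD, with 0 called. The part of these markers was not tested.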

How the data were processed

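The deposited values are counts, whole numbers of reads per Ensembl gene in 12 libraries, made by the authors before deposit. The submitters' processing notes list HTSeq 0.5.4p3, Bowtie2 2.1.0, TopHat2 2.0.10 and CASAVA 1.8.2, and mm10 as the build. Counting mode, annotation release and use of strand are not given in the sources used. Counts of genes with overlapping exons are therefore uncertain. Per the labels' protocols RNA was amplified with the Ovation RNA-Seq V2 kit. Symbols and positions came from GENCODE vM21, which matched 37607 of 39086 identifiers (96.2%), and lengths are the union of a gene's exons.

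Genes were kept by edgeR's filterByExpr (17087), and libraries were scaled by TMM. One model with a mean for each of the 4 groups was fitted to all 12 libraries, with 8 residual degrees of freedom. The common biological coefficient of variation was 0.536. Comparisons used edgeR's two-sided quasi-likelihood test, with p-values adjusted by Benjamini-Hochberg over 17087 genes and calls below 0.05. The standard error printed with an edgeR log2 fold change is its absolute value divided by the square root of the test's F. It is an approximation, above all for genes of a few CPM. CPM and RPKM use the scaled library sizes. Libraries held 9543183 to 29054281 counts, and genes of a few CPM, such as Chac1, Trib3 and Derl3, rest on few reads.

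The members, their branches, the other lists and the markers were chosen with earlier results of these data known. Values in every library are given for the sensors and factors, Hspa5, each member called in any comparison and, in each role group, the member with the smallest p in HFD against ND in EEC and in EEC against non-EEC over both diets (18 genes). Of other lists up to 4 called genes per comparison with the smallest adjusted p are named. Canx, Chac1, Derl3, Herpud1, Sel1l, Sesn2 and Syvn1 were given library or test values after they were seen.

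Same-numbered libraries of the 2 populations were checked for shared deviations from their group means. Under HFD the correlations were 0.247, 0.239 and 0.234, all over 0.1, so the replicate block is given beside the HFD results. Under ND they were 0.142, 0.227 and -0.013, and those libraries were treated as paired only in the block setting. The replicate block differed by comparison. For HFD against ND it was the replicate number, shared by both diets. For EEC against non-EEC and the difference of diet effects it was the pair of same-numbered libraries within a diet, ND pairs included. Results were recomputed with DESeq2, with limma-voom and quality weights, with a replicate block, with only the libraries compared, with robust dispersions, with upper quartile or RLE factors, with a stricter filter of at least 5 CPM in at least 3 libraries or none, and without each library in turn. The script was tested on simulated data. Versions were DESeq2 1.42.0, edgeR 4.0.16 and limma 3.58.1 in R 4.3.3, and matplotlib 3.10.9 for the plots.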

Additional observations from a re-analysis of the deposited data

How the results depend on the processing

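Each result was recomputed under 9 other settings and without each library in turn. In EEC, HFD against ND gave 0 of the 34 genes in either direction under every one. In non-EEC, where 3 were higher and 0 lower, DESeq2 gave 6 and 1, limma-voom with quality weights 14 and 1, the replicate block 4 higher (adding Herpud1), no filter and the filter of 5 CPM 2 higher each, and a fit of only the libraries compared 2 higher and 1 lower; without 1 library it was 0 to 6 higher and 0 to 1 lower. For the difference of diet effects, 0 in either direction, limma-voom gave 2 negative, and runs without 1 library gave 0 to 1. For EEC against non-EEC over both diets, with 2 higher and 2 lower, limma-voom gave 5 and 3, DESeq2 3 and 3, the replicate block 4 higher, the filter of 5 CPM 3 lower and no filter 1 lower; without 1 library it was 2 to 3 higher and 1 to 3 lower. Under ND, with 2 higher and 1 lower, limma-voom gave 4 and 2 and only the libraries compared 1 higher; without 1 library it was 1 to 3 and 0 to 1. Under HFD, with 1 higher and 1 lower, upper quartile factors, the filter of 5 CPM in 3 libraries, DESeq2, limma-voom and the replicate block each gave 2 higher and only the libraries compared 3. The lower count there was 2 with no filter or only the libraries compared and 3 with DESeq2, limma-voom or the replicate block. Runs without 1 library gave 0 to 2 higher and 1 to 3 lower under HFD, and the fewest higher came without any of 7 libraries. The strict filter left Chac1, Trib3 and Derl3 untested. The cause of these shifts was not tested. For most of these settings the share of all genes called is not given here, so the counts alone say nothing particular of the 34 genes.

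Of 59 log2 fold changes under 1218 alternatives, 1120 kept their direction and side of the threshold, 39 lost a call, 18 gained one and 41 changed sign, the last in 15 results, of which 0 were called. By setting, limma-voom gave 0.088 for Xbp1 and the filter of 5 CPM -0.008 for Derl1 in EEC by diet. Derl2 in non-EEC by diet was -0.019 with upper quartile factors, -0.038 with no filter and -0.07 with the filter of 5 CPM, and Ppp1r15a was 0.24 with limma-voom. Between populations over both diets, Ern2 was 0.31 with limma-voom and 0.23 with the replicate block, and Trib3 0.34 with limma-voom. Without 1 library, values in EEC by diet ran from -0.10 to 0.49 for Ern1, -0.28 to 0.027 for Xbp1, -0.086 to 0.38 for Dnajc3 and -0.14 to 0.12 for Derl1. In non-EEC by diet they ran from -0.35 to 0.30 for Ern1, -0.32 to 1.31 for Ern2, -0.36 to 0.12 for Dnajc3, -0.42 to 0.31 for Pdia4, -0.14 to 0.06 for Derl2, -0.10 to 0.56 for Eif2ak3 and -0.97 to 0.57 for Ppp1r15a. Over both diets they ran from -0.39 to 0.39 for Ern2, -0.31 to 0.041 for Hspa5, -0.63 to 0.15 for Trib3 and -0.033 to 0.79 for Ppp1r15a. In these the sign rests on single libraries.

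With 3 libraries a group and the spread given, changes of about the size seen in the ATF4 branch in EEC did not pass the adjusted threshold, and values of a few CPM rest on few reads. The replicate block that paired same-numbered libraries within each diet added Ern1 (adjusted p = 0.0322 by edgeR) and Xbp1 (0.0484) to the genes higher over both diets. The block of the replicate number, shared by both diets, added Herpud1 (adjusted p = 0.0382 by edgeR) to those higher under HFD in non-EEC. Same-numbered libraries of the 2 diets correlated at -0.093, -0.114 and 0.234 in non-EEC and at 0.181, 0.127 and 0.023 in EEC. The labels name no batch that these numbers share. The block used for each comparison changed no call in EEC by diet, in the difference of diet effects or under ND. Under ND, same-numbered EEC and non-EEC libraries correlated best with each other in 2 of 3 pairs, a hint from the data and not from the design.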

Other observations

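Ern2, the IRE1 gene known from mucus-secreting epithelium, varied within groups, and its values are given here beside those of goblet cell markers without explanation. In ND non-EEC, Ern2 had 51.4, 19.1 and 3.49 CPM in replicates 1, 2 and 3, and summed goblet markers (8 genes) had 37260, 3140 and 937 CPM in the same libraries. In HFD non-EEC, Ern2 had 48.1, 24.6 and 16.6 CPM and the goblet markers 13430, 6596 and 10730. In ND EEC, Ern2 had 18.4, 25.1 and 12.4 CPM beside goblet markers of 4383, 3586 and 2814 CPM. In HFD EEC, Ern2 had 37.5, 31.8 and 26.2 CPM beside goblet markers of 3785, 2263 and 3549 CPM. The highest and lowest Ern2 library of ND non-EEC were also the highest and lowest for the goblet markers. In ND EEC only the lowest library was shared, and in HFD EEC and HFD non-EEC only the highest. Every HFD EEC library had more Ern2 than any ND EEC library, while the goblet markers of these groups overlapped. With 3 libraries a group no relation can be tested.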
